A study of Mus musculus with 11 samples.

Results

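In mouse embryonic stem cells (ESCs), 238 of 4180 RING1B peaks were narrower than 5000 bp, overlapped a CBX7 peak by at least 1 bp and overlapped no CBX6 peak of either replicate. They are called here the sites without CBX6. They were chosen by peak calls in the CBX6, CBX7 and RING1B lists, so their lack of CBX6, their width limit and their CBX7 peak are descriptions of the choice and not results. Of the other narrow sites with a CBX7 peak, 2314 had a CBX6 peak in both replicates, 326 in replicate 1 only and 502 in replicate 2 only. A further 419 narrow RING1B peaks had no CBX7 peak, and 381 RING1B peaks were 5000 bp or wider.

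All samples were of the ESC line E14Tg2A, grown without feeder cells in serum and LIF. The CBX6 lists came from anti-HA ChIP-seq (replicates R1 and R2) in ESCs whose endogenous CBX6 carries a C-terminal 3×HA tag introduced with CRISPR-Cas9, from clones grown out of single sorted cells, so these cells carry an edited allele that the cells of the other samples are not stated to carry. CBX7 and RING1B were each profiled in 1 ChIP-seq sample. Control ChIP samples (anti-HA in untagged parental cells, IgG for CBX7 and for RING1B) were not analysed here. For RNA-seq, 2 libraries (shCTL) came from ESCs infected with a lentivirus for a control shRNA and 2 (shCbx6) with one against Cbx6, all selected with puromycin; the study used more than a single Cbx6 shRNA, and which of them a library received is not given in the sources used here. Nothing in the labels says that libraries came from separate cultures, so any p-value measures only the spread between these libraries, which may be technical.

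Polycomb repressive complex 1 (PRC1) adds ubiquitin to histone H2A through its catalytic subunit RING1B. In canonical PRC1 a CBX protein, whose chromodomain can bind the methylated histone H3 left by PRC2, takes part in bringing the complex to chromatin, and CBX7 is the main CBX protein of ESCs. In these cells Polycomb complexes occupy CpG islands at the starts of genes that are silent until differentiation. CBX6 is a further CBX protein, and the sites described here ask where RING1B and CBX7 were called together and CBX6 was not.

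The sequences below show the range of base composition among the 10 sites without CBX6 that had the highest RING1B scores. Each is the central 300 bases of a site on the plus strand of mm9, with every CpG in capitals. The window at Nhs, an X-linked gene for a regulator of actin remodelling, lies at chrX:158596949-158597248 and touches a coding exon. The window at Npbwr1, which encodes a receptor for neuropeptides B and W, lies at chr1:5906929-5907228, also in a coding exon, and belongs to the highest scoring autosomal site. The window between Trpc5, a calcium-permeable channel gene, and Zcchc16 lies at chrX:141123041-141123340, in no annotated exon. The window of a site 34357 bp from the nearest annotated start, that of Gm14899, lies at chrX:109008444-109008743, in no annotated exon.
Nhs: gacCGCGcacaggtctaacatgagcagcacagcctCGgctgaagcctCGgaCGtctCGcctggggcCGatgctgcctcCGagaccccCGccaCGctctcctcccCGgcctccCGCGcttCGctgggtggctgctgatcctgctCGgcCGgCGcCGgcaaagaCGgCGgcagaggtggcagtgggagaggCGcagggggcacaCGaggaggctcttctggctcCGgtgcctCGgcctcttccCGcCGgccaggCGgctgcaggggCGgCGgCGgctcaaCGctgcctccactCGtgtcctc
Npbwr1: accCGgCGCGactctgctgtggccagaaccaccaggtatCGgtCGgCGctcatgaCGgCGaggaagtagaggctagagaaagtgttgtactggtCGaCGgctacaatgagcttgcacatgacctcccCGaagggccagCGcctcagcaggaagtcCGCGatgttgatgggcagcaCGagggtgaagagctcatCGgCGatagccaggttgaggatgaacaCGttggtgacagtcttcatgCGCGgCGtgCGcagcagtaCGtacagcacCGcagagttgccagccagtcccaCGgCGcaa
Trpc5 and Zcchc16: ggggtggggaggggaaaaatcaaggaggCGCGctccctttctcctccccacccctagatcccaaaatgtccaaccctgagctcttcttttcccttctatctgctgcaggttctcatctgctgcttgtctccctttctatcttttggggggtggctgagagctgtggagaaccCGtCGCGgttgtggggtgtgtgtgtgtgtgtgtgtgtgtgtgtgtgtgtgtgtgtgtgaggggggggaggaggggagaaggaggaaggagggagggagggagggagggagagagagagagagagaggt
near Gm14899: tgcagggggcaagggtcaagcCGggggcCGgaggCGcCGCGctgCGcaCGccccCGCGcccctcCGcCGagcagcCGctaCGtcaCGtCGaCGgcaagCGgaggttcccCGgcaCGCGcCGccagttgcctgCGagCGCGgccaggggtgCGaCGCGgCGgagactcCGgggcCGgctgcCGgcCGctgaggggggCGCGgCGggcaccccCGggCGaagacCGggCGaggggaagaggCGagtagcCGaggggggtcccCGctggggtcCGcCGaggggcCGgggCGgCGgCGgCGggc
The window near Gm14899 held 49 CpGs, that at Nhs 32, that at Npbwr1 26 and that between Trpc5 and Zcchc16 5. CpG-dense and CpG-poor sequences thus stood side by side among the highest scoring sites.

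The sites without CBX6 were narrow and had low scores. The score of a peak is the MACS score, a log-transformed p-value that is higher for a clearer peak, and it can be compared only within a list. The median RING1B score was 114 over the 238 sites (quartiles 71.6 and 202), against 657 over the sites with CBX6 in both replicates, 115 over those with replicate 1 only and 247 over those with replicate 2 only. The median CBX7 score was 138 against 682, 152 and 316 in the same order. Sites with a CBX6 peak in replicate 1 only therefore had RING1B scores like those of the sites without CBX6. The median width of the sites without CBX6 was 1509 bp (range 580 to 3389 bp). It was 2569 bp where both replicates had a peak, 1721.5 bp with replicate 1 only and 1970 bp with replicate 2 only. Narrow RING1B peaks without CBX7 were narrower still, with a median of 1340 bp, and had a lower median RING1B score of 75.6.

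**Figure D1:**
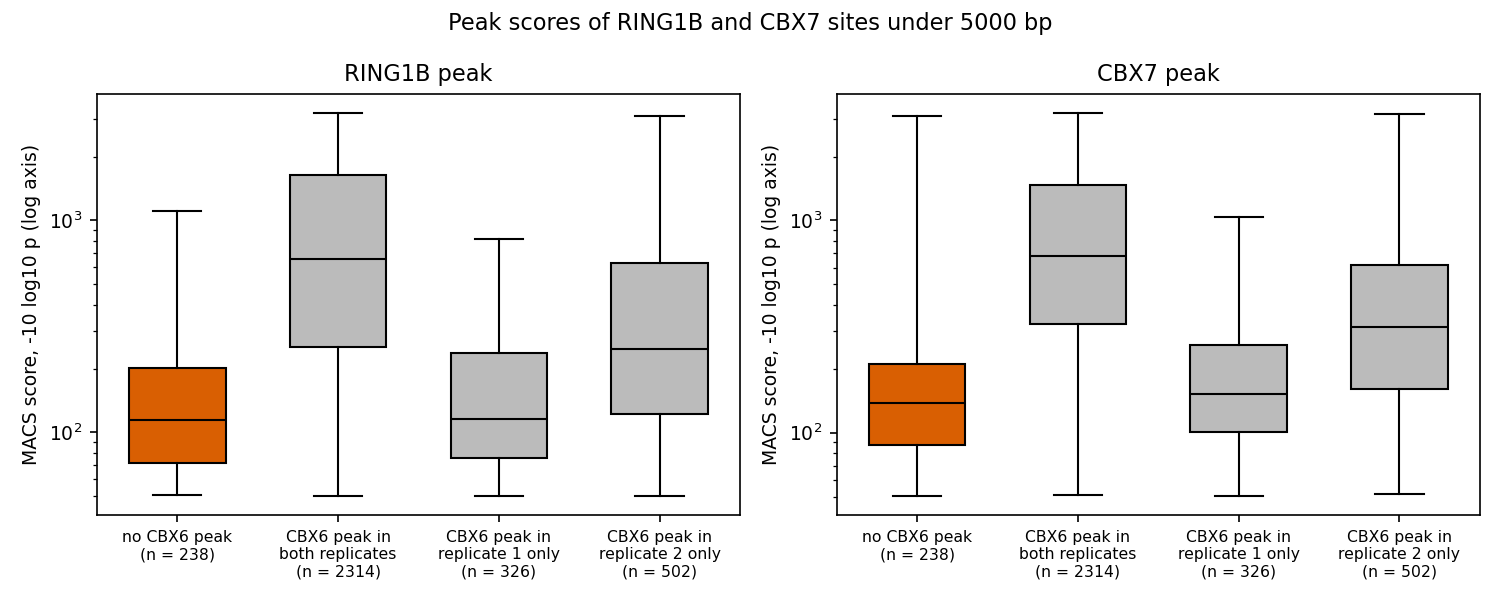
MACS scores (log axis) of the RING1B peak (left) and the CBX7 peak (right) for the 4 classes of narrow site, with boxes from the lower to the upper quartile, a line at the median and whiskers to the lowest and highest value. The orange box of the 238 sites without CBX6, with a RING1B median of 114, lies at the level of the 326 sites with a CBX6 peak in replicate 1 only and below the 2314 sites with CBX6 in both replicates.

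At the borders of the choice, no RING1B peak of 5000 bp or wider with a CBX7 peak lacked CBX6. The smallest overlap of a site without CBX6 with its CBX7 peak was 404 bp, at Airn, an imprinted non-coding RNA gene. The sites nearest to a CBX6 peak lay at Zbtb7c, Pcdha11 and Flt4, with gaps of 7, 24 and 59 bp. Just outside the choice, narrow sites near Gm15663, Gm16551 and Ostm1 overlapped a CBX6 peak by 30, 39 and 95 bp. Only 10 of the 238 sites (4.20%) had a CBX6 peak within 500 bp, and the median gap to the nearest CBX6 peak of either replicate was 38970 bp.

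A larger share of sites lacked CBX6 on chromosome X than on the autosomes. Of 90 narrow RING1B and CBX7 sites on X, 36 lacked CBX6 (40.0%, 95% Wilson interval 30.5 to 50.3%), against 202 of 3290 on the autosomes (6.14%, interval 5.37 to 7.01%). Among single autosomes the share ran from 2.33% on chromosome 4 to 13.7% on chromosome 14. A CBX6 peak of replicate 1 overlapped 11.1% of the X sites and 79.9% of the autosomal ones, and a peak of replicate 2 overlapped 56.7% and 84.0%. The intervals of these shares on X and on the autosomes do not overlap, but they cover counting error only, and no test was run because CBX6 peaks chose the sites.

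The CBX6 peak lists themselves held few peaks on X. Replicate 1 had 53 of 21865 peaks there (0.242%), replicate 2 93 of 5103 (1.82%), the CBX7 list 2.68% and the RING1B list 3.11%. Per Mb, replicate 1 had 0.318 peaks on X and 8.82 on the autosomes, replicate 2 had 0.558 and 2.03, CBX7 0.816 and 2.00 and RING1B 0.780 and 1.64. All 4 lists were thus sparser on X, and CBX6 replicate 1 by the widest margin. Parental ESCs served as the control of the HA ChIP-seq, but whether they entered the peak calls is not given in the sources used here. The part of the few X peaks of replicate 1 in the X sites counted here was not tested.

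On the autosomes the share without CBX6 was lower in each higher bin of RING1B score. It was 20.4% of 494 sites with a score of 50 to 100, 11.1% of 551 from 100 to 200, 5.45% of 587 from 200 to 400, 1.08% of 556 from 400 to 800 and 0.181% of 1102 at 800 or more. On X the share was 50.0% of 6, 62.5% of 16, 64.3% of 14, 42.9% of 21 and 15.2% of 33 sites in the same bins. The share on X was higher than on the autosomes in each bin, with 6 to 33 X sites a bin. In the lowest bin, with 6 X sites, the intervals overlapped. These intervals cover counting error only, and no test was run because CBX6 peaks chose the sites. The median RING1B score was 320 for the 36 X sites and 98.1 for the 202 autosomal ones. At a score of 400 or more there were 14 sites without CBX6 on X and 8 on the autosomes, and at 200 or more 23 and 40.

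**Figure D2:**
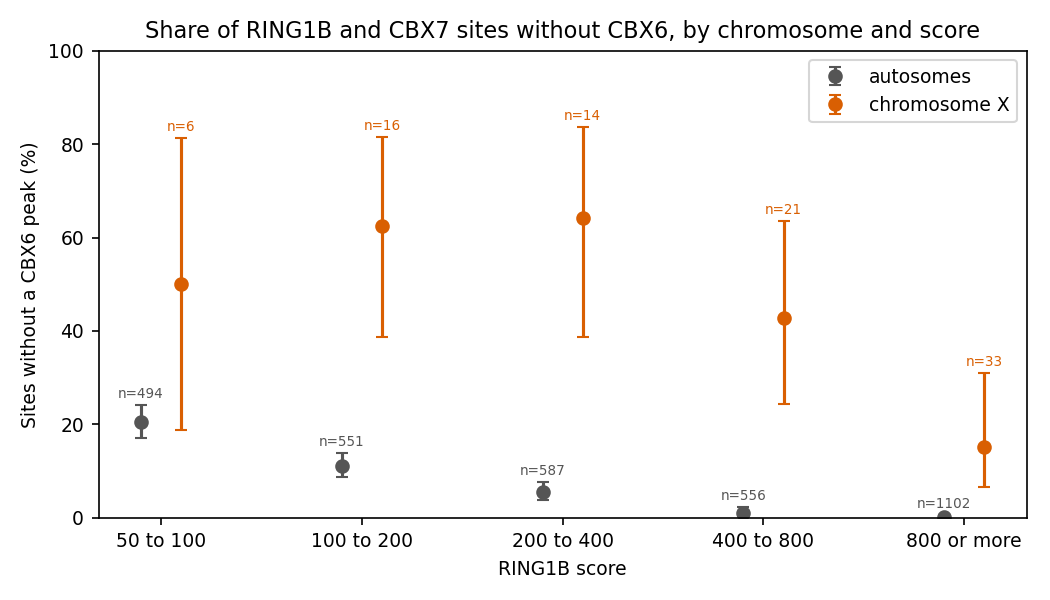
Share of narrow RING1B and CBX7 sites without a CBX6 peak (%), by RING1B score bin, on the autosomes (grey) and chromosome X (orange), with 95% Wilson intervals and the number of sites in each bin. From a score of 200 to 400 the share was 64.3% on X and 5.45% on the autosomes.

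Of the 10 sites with the highest RING1B scores, 8 lay on X. They were at Tmem28 (score 1110), Nhs (1070), Trpc5 and Zcchc16 (1065), B630019K06Rik (868), Zfp36l3 (840), a site near Gm14899 (793), Lancl3 (721) and a site 4571 bp from the start of Gm14506 (685). The autosomal sites were at Npbwr1 on chromosome 1 (956) and at Phf19, a gene of a PRC2 accessory protein, on chromosome 2 (818). Zfp36l3 encodes a zinc finger protein that binds RNA. The nearest CBX6 peak was 6927 bp away at Phf19, in replicate 1, whereas at the other 9 sites it was over 100000 bp away.

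Gaps to CBX6 peaks are given by chromosome as a description, since the same peaks chose the sites and were sparser per Mb on X. The median gap was 24832 bp for the 202 autosomal sites and 422181 bp for the 36 on X. A CBX6 peak of either replicate lay within 50000 bp of 130 autosomal sites (64.4%) and of 2 X sites (5.56%).

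**Figure D3:**
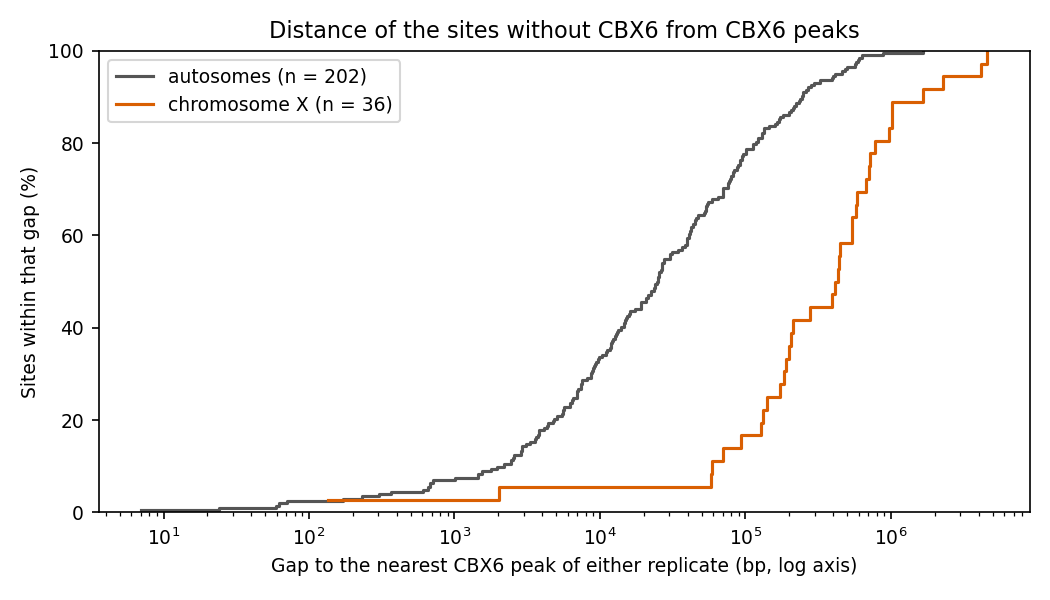
Cumulative share (%) of the sites without CBX6 whose gap to the nearest CBX6 peak of either replicate is no longer than the value on the x axis (bp, log axis), for the 202 autosomal (grey) and the 36 X-linked (orange) sites. At 50000 bp the autosomal line stands at 64.4% and the X line at 5.56%.

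Fewer of the sites without CBX6 lay at gene starts than of the sites with CBX6 in both replicates or in replicate 1 only. A window of 2500 bp on either side of an annotated start overlapped 167 of 238 (70.2%, interval 64.1 to 75.6%), against 83.1% of sites with CBX6 in both replicates (81.5 to 84.5%), 81.3% with replicate 1 only (76.7 to 85.1%), 66.3% with replicate 2 only (62.1 to 70.3%), 72.8% of narrow RING1B peaks without CBX7 (68.3 to 76.8%) and 80.0% of all RING1B peaks. With RING1B and CBX7 scores of at least 100 the share of the sites without CBX6 was 77.8% (69.1 to 84.6%). This interval overlaps those given for both replicates and for replicate 1 only. Those classes were not counted with the score limit, so the difference at that setting is not known. The centre of the site lay in a coding exon in 61 cases, an untranslated region in 41, a non-coding exon in 11, an intron in 65 and outside genes in 60. On X 69.4% and on the autosomes 70.3% were at a start, so the share at starts was nearly the same on both.

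The sites without CBX6 were CpG-rich but less so than the sites with CBX6 in both replicates. In the central 500 bp, the median ratio of observed to expected CpGs was 0.689 (quartiles 0.560 and 0.803), against 0.787 with both replicates, 0.768 with replicate 1 only, 0.675 with replicate 2 only and 0.748 over all RING1B peaks. A ratio above 0.6, one of the usual criteria of a CpG island, was found at 67.2% (interval 61.0 to 72.9%), against 81.3% with both replicates (79.7 to 82.9%) and 81.9% with replicate 1 only (77.4 to 85.7%). It was found at 66.3% of the sites with replicate 2 only (62.1 to 70.3%), whose interval overlaps that of the sites without CBX6. Median GC content was 62.9%, against 66.0%, 67.0% and 60.2% in the same order. Among sites at a start the median CpG ratio was 0.695, against 0.794 with both replicates and 0.708 with replicate 2 only. Over whole peaks, whose widths differ between classes, the median CpG ratio was 0.534, against 0.611 with both replicates, 0.597 with replicate 1 only and 0.537 with replicate 2 only. Median GC content over whole peaks was 57.0%, against 57.1%, 59.3% and 53.8%, so the lower GC content than with both replicates was seen in the central 500 bp and not over whole peaks. The CpG ratio of the sites without CBX6 was thus below that of 2 of the 3 classes with CBX6 and near that with replicate 2 only. Sites with replicate 1 only had RING1B scores like those of the sites without CBX6, yet their CpG ratios were like those of the sites with both replicates.

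**Figure D4:**
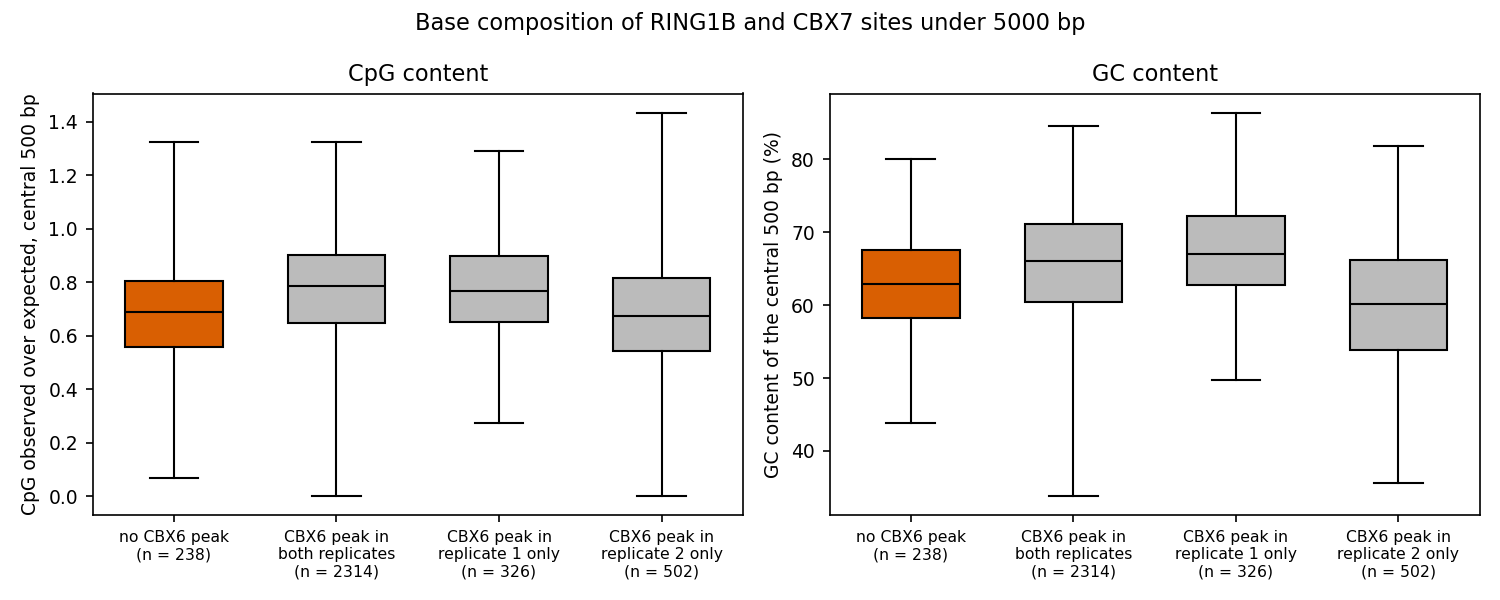
Ratio of observed to expected CpGs (left) and GC content in % (right) of the central 500 bp of the 4 classes of narrow site, with boxes from the lower to the upper quartile, a line at the median and whiskers to the lowest and highest value. The medians of the 238 sites without CBX6 are 0.689 and 62.9%, and those of the 2314 sites with both replicates are 0.787 and 66.0%.

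A search for 12 short motifs covered both strands of the central 500 bp, and shares over all RING1B peaks, which include these sites and the wide peaks, are given beside those of the sites without CBX6. The E-box CACGTG, bound by MAX and MGA of variant PRC1, was in 14.7% of them (interval 10.8 to 19.8%) and in 11.7% of all RING1B peaks. It was in 9.20% of sites with CBX6 in both replicates (8.09 to 10.5%), 12.3% with replicate 1 only and 8.96% with replicate 2 only. Narrow RING1B peaks without CBX7 held it most often, at 29.8%. The site GCGGGAA, bound by E2F6, was in 17.2% and 13.3%, and the GC box CCGCCC of SP and KLF factors in 67.2% and 63.6%. The T-box site AGGTGTGA was in 1.26% and 1.36%, the YY1 site CCATNTTG in 2.94% and 3.21%, GATAAG in 5.46% and 6.27%, and the octamer ATTTGCAT in 0.420% and 0.909%. The SOX site CACAATGG was in 2.10% (interval 0.901 to 4.82%) and 0.885% (0.643 to 1.22%), intervals that overlap. The homeodomain site TTAATTA was in 0.420% (0.0742 to 2.34%) and 2.18% (1.78 to 2.67%), which also overlap, and in 6.04% of the wide peaks. The NRF1 and CTCF sites were each in 0.420% of the sites without CBX6 and in 0.335% and 0.670% of all RING1B peaks. The REST core site was in 0 of 238 and in 0.0239% of all RING1B peaks. A match of letters is a description and not a binding site.

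The expression table held a gene start within 2500 bp of 157 of the 238 sites, for 164 genes, called here the genes at sites without CBX6. The name refers to the site and not to the whole gene. Another RING1B peak lay at a start of 18 of them, and a CBX6 peak of either replicate overlapped the window around a start of 26 (19 in replicate 1 and 18 in replicate 2), which left 138 with none. None of 298 Hox, other homeobox, forkhead, Sox and T-box genes, the developmental transcription factors typical of Polycomb targets, was among them, although 226 had a RING1B peak at a start. Only 72 of these had a narrow RING1B and CBX7 site (47 of them in the other homeobox group), and the 5 families were pooled after their counts were seen, so nothing is read from 0 of 72. The bHLH transcription factors, not pooled with them, had 2 of 30 genes with a narrow site, Heyl and Bhlhe22. Of WNT pathway genes and of axon guidance genes there were 0 of 36 each, which allows a share of up to 8.33%, above the 6.22% over all 2638 genes with a narrow site.

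Some genes for membrane proteins were among them. Genes at sites without CBX6 made up 7 of 80 potassium, sodium and calcium channel genes with a narrow site (8.75%), 8 of 88 genes on a list of G protein coupled receptors (9.09%) and 7 of 63 solute carriers (11.1%). Glutamate, GABA, glycine and acetylcholine receptors had 2 of 34 (5.88%), and Eph receptors and ephrins 1 of 11 (9.09%). The share over all 2638 genes with a narrow site was 6.22%. No list was tested, and nothing is read from these counts. The channels with the highest RING1B scores were Trpc5, Kcnq3, Kcng4 and Kcne1l. The receptor list, drawn up by symbol patterns, is not complete and lacks Npbwr1 and Ltb4r2, whose sites scored 956 and 292. The receptors on it were led by Gpr101, Gpr64, Drd1a (a dopamine receptor) and Ntsr1 (a neurotensin receptor), and the solute carriers by Slc13a5, Slc5a1, Slc22a17 and Slc35f3. Phf19 was the only PRC2 gene with a RING1B peak at a start, and Tdrd1 stood for 1 of 6 germline genes of variant PRC1 with a narrow site. Genes of the protocadherin clusters and MHC class I genes, which have near-identical copies, were among the genes at sites without CBX6, and their counts and FPKM are uncertain.

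Most genes at sites without CBX6 were at low levels in control ESCs. In shCTL, 126 of 164 had a mean under 1 FPKM (76.8%, interval 69.8 to 82.6%), and the median was 0.123 FPKM. The share was 70.6% (68.5 to 72.6%) at sites with CBX6 in both replicates, 60.6% (54.6 to 66.2%) with replicate 1 only, 82.9% (78.3 to 86.6%) with replicate 2 only and 52.0% over all genes of the table. The interval of the genes at sites without CBX6 overlaps those with both replicates and with replicate 2 only. It stood above that with replicate 1 only.

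At the highest scoring sites most genes were at low levels, and only Tmem28 and Phf19 reached a mean of 1 FPKM in shCTL. Npbwr1 and Zcchc16 were listed at 0 FPKM in all 4 libraries. Nhs had 0.923 and 0.716 FPKM under shCTL against 0.376 and 0.724 under shCbx6, groups that overlap. Tmem28 had 0.897 and 1.13 FPKM under shCTL against 1.64 and 1.55 under shCbx6, so both shCbx6 values were higher. Phf19 had 2.36 and 3.37 FPKM under shCTL against 1.76 and 2.00 under shCbx6, with both shCbx6 values lower. Neither difference passed limma, with adjusted p of 0.517 for Tmem28 and 0.499 for Phf19.

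A few genes at sites without CBX6 were well expressed. Grb10, an imprinted adaptor of receptor signalling, had 62.0 and 73.3 FPKM in shCTL. Lower values were found for Snx22, a sorting nexin gene, with 31.0 and 39.3 FPKM, E2f8, a repressor of the E2F family, with 16.6 and 15.9 FPKM, and Smyd2, a lysine methyltransferase gene, with 12.8 and 12.9 FPKM. The sites at these genes were weak, with RING1B scores of 63.9, 131, 86.1 and 52.5. Grb10 and Smyd2 also had another RING1B peak at a start and CBX6 peaks of both replicates within the window of a start, which at Grb10 lay 606 and 622 bp from the site.

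The RNA-seq comparison asks whether genes at sites without CBX6 differ when Cbx6 is knocked down. Cbx6 itself had 17.4 and 14.9 FPKM under shCTL against 9.53 and 5.40 under shCbx6, so its mean was 53.8% below shCTL, and all shCbx6 values were lower. On the log2(FPKM + 1) scale, which understates the change of low genes, it differed by −1.06 (SE 0.26), with a limma adjusted p of 0.247. At the RNA level the knockdown was therefore partial, while the paper reports an efficient reduction of CBX6 protein with its Cbx6 shRNAs. Summed FPKM of 9 trophectoderm markers were 13.6 and 18.1 under shCTL against 35.3 and 264 under shCbx6, and of 15 ESC markers 8170 and 9282 against 7564 and 6497, so shCbx6 replicate 2 stood furthest from shCTL in both. A single ESC marker, with a mean of 4989 FPKM in shCTL, weighs most in that sum. Neuroectoderm markers summed to 49.6 and 42.7 against 37.2 and 29.9, and fibroblast markers to 2.82 and 2.60 against 2.01 and 6.14. Primitive endoderm markers summed to 16.1 and 15.5 against 6.13 and 10.3, so there replicate 1 stood furthest. Defining markers of mesoderm stayed low, with a sum of at most 1.78 FPKM in any library. The part of these marker levels in the values below was not tested, and fewer cells of a type and less RNA per cell cannot be told apart in these bulk samples.

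Of the 164 genes, 45 reached a mean of 1 FPKM in either group and were tested, 7 of them through shCbx6 alone. By the ratio of mean FPKM, 15 were at least 1.5-fold higher in shCbx6, where the background over all 11577 tested genes was 7.64%, and 10 were at least 1.5-fold lower, with a background of 6.56%. Of 687 tested genes at sites with CBX6 in both replicates, 185 were higher (26.9%) and 98 lower (14.3%). Both shCbx6 values lay above both shCTL values at 19 of the 45, with a background of 18.9%, and below them at 12, with a background of 24.3%. A gene that passed the filter only through shCbx6 had to be higher there. All 7 such genes were among the 15, which leaves 8 others, and 5 of the 10 lower genes passed through shCTL alone and had to be lower. Nothing is read from the 15 or the 10 against the background. Of the 37 tested genes with no CBX6 peak in the window of any start, 13 were higher and 8 lower. Without shCbx6 replicate 2, 9 genes were higher in place of 15.

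By limma, 0 of the 45 genes passed an adjusted p of 0.05 in either direction, with backgrounds of 0.0432% higher and 0.0518% lower over all genes. At an unadjusted p under 0.05 there were 7 higher and 7 lower, against a background of 11.7% in both directions together. The lowest adjusted p among these genes was 0.100, at Ica1. This fit had no block for replicate number. With such a block, an alternative described below, 2 of the 45 genes passed higher and 4 lower, beside 183 and 205 of all 11577 genes. With 2 libraries per group, a two-sided exact permutation test of a single gene could not go below p = 0.333.

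On the same scale, log2(FPKM + 1), the largest differences upwards were at Thbs1, Cxcl16, Gchfr, Tmcc3 and Ndn. Thbs1, a matrix glycoprotein gene, had 0.0486 and 0.0533 FPKM under shCTL against 1.33 and 6.30 under shCbx6. Cxcl16, a chemokine gene, had 0.498 and 0.478 FPKM under shCTL against 2.00 and 3.83 under shCbx6. Gchfr, whose product regulates tetrahydrobiopterin synthesis, had 1.21 and 2.39 FPKM under shCTL against 3.42 and 7.13 under shCbx6. In all of these, shCbx6 replicate 2 was the highest library. With a library left out, the log2 difference of Thbs1 ran from 1.15 to 2.80. Tmcc3 had 0.201 and 0.336 FPKM under shCTL against 0.704 and 2.37 under shCbx6, and its log2 difference ran from 0.43 to 1.41 with a library left out. Thbs1, Cxcl16 and Tmcc3 passed the filter through shCbx6 alone. Ndn, an imprinted gene, had 2.21 and 2.43 FPKM under shCTL against 3.71 and 5.93 under shCbx6. The groups did not overlap at these genes by the rule that chose them, and log2 differences ran from 0.78 (SE 0.23) at Ndn to 1.97 (SE 0.54) at Thbs1 (4.33 with 0.1 in place of 1 FPKM added), with limma adjusted p from 0.186 at Cxcl16 to 0.424 at Tmcc3. Without shCbx6 replicate 2 the log2 difference was 0.50 at Ndn and 0.69 at Gchfr.

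On the log2(FPKM + 1) scale, the largest differences downwards were at Khdc3, B3galnt1, Ica1, Frmd4a and Slc13a5. The order rests on that scale. The ratio of mean FPKM was 0.162 at Slc13a5, 0.191 at Khdc3 and 0.356 at B3galnt1, and Dmgdh, not among the 5, had 0.268. Khdc3, a gene of the maternal complex of the oocyte and early embryo, had 8.60 and 15.0 FPKM under shCTL against 2.28 and 2.22 under shCbx6. B3galnt1, a glycosyltransferase gene, had 10.2 and 10.7 FPKM under shCTL against 4.77 and 2.65 under shCbx6. Ica1 had 9.94 and 9.21 FPKM under shCTL against 4.37 and 4.21 under shCbx6. Here both shCbx6 libraries stood close together at Khdc3 and Ica1, unlike at the 5 genes named above. Frmd4a, a scaffold gene, had 7.97 and 5.54 FPKM under shCTL against 3.75 and 2.14 under shCbx6. Slc13a5, a citrate transporter gene, had 1.38 and 1.42 FPKM under shCTL against 0.175 and 0.280 under shCbx6, and passed the filter through shCTL alone. Log2 differences ran from −0.97 (SE 0.19) at Slc13a5 to −1.93 (SE 0.26) at Khdc3, with limma adjusted p from 0.100 at Ica1 to 0.274 at Frmd4a. With 0.1 in place of 1 FPKM added they were −2.21 at Slc13a5 and −2.28 at Khdc3, so the value at Slc13a5 depends on the FPKM added.

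**Figure D5:**
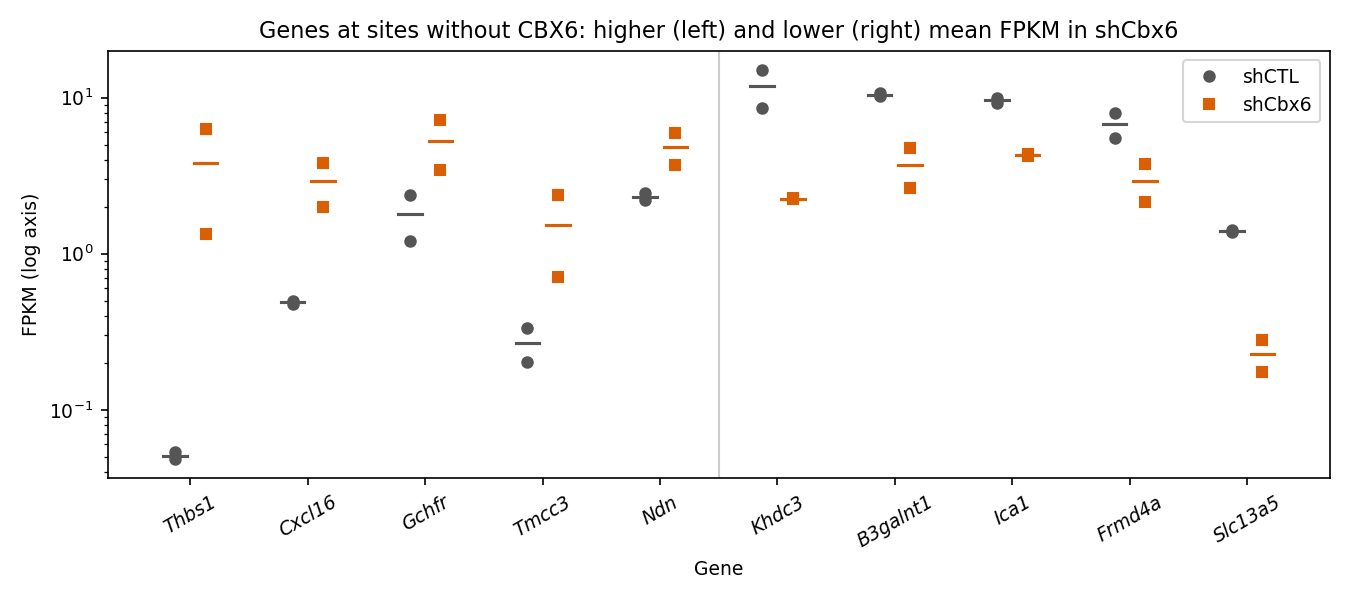
FPKM (log axis) of the 5 genes with the largest upward (left) and the 5 with the largest downward (right) log2 difference among genes at sites without CBX6 past 1.5-fold whose groups do not overlap, in 2 shCTL (grey circles) and 2 shCbx6 libraries (orange squares), with lines at the means. Thbs1 has 0.0486 and 0.0533 FPKM under shCTL against 1.33 and 6.30 under shCbx6, and Khdc3 8.60 and 15.0 against 2.28 and 2.22.

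Genes on X at these sites numbered 24, of which 5 were tested. Of these, 4 were at least 1.5-fold higher in shCbx6 and 0 lower, against 11 and 10 of 40 autosomal genes. Over all 11577 tested genes 7.64% were higher and 6.56% lower. The 4 genes on X were Morc4, Map3k15, Tmem28 and Fgf13, and were named after their values were seen. Fgf13, a gene of the FGF family, had overlapping groups. Morc4 passed the filter through shCbx6 alone and so had to be higher there. With 5 genes, and limma adjusted p of at least 0.388 among them, the direction on X was not shown to differ.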

How the data were processed

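Peaks and expression were examined in ESCs of the E14Tg2A line (7 ChIP-seq and 4 RNA-seq samples). The authors aligned ChIP reads to mm9 with Bowtie, keeping uniquely mapping reads, and called peaks in each sample with MACS. The score in the deposited peak lists is the authors' MACS score, and depth per ChIP sample is unknown. CBX6 and CBX7 ChIP DNA was prepared with a kit and RING1B with another protocol. The authors computed the deposited FPKM values with TopHat and Cufflinks. Versions are not given in the sources used here.

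Sites were joined by overlaps of at least 1 bp and annotated with GENCODE on mm9, whose genome gave all sequences. Of 23290 table entries, 25 carried dates in place of symbols and were left out, and 94.2% of the other symbols had coordinates. Genes whose shCTL or shCbx6 mean reached 1 FPKM were fitted with limma 3.58.1 (R 4.3.3) on log2(FPKM + 1), with an intensity trend and no block for replicate number, and p-values were adjusted by Benjamini-Hochberg over all of them. Simulated data for shCbx6 against shCTL held 11577 genes, of which 200 were changed by 1, 2 or 3 units of log2(FPKM + 1). Of these changes limma recovered 21.5%, 74.6% and 88.9% in the same order, with 4 calls among unchanged genes. Only genes with a shCTL mean above 2 units were changed, so recovery at lower genes is not known. A 2-fold change of a gene near 1 FPKM is well under 1 unit. Shares have 95% Wilson intervals, for counting error only. Python 3.11.15, numpy 2.4.6, pandas 2.3.3, scipy 1.17.1 and matplotlib 3.10.9 were used.

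Named are Cbx6, the 10 sites of highest RING1B score, the 5 largest upward and downward log2 differences past 1.5-fold without overlap, up to 4 genes per list, the genes highest in shCTL (the first 5, of which 4 are reported) and the sites at the borders. A few items that this rule names are not reported here. The sites and lists were chosen with earlier results of these data known. Alternatives covered overlap, width, peak score, start window, filter, pseudocount, scaling and libraries left out.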

Additional observations from a re-analysis of the deposited data

How the results depend on the processing

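So few libraries miss most changes of 1 unit of log2(FPKM + 1), with 21.5% recovered in simulation, where low genes were left unchanged. Peak lists without read counts leave the depth behind a missing CBX6 peak unknown. The number of sites without CBX6 (238) was 384 when 50% of the peak had to be covered, 108 with RING1B and CBX7 scores of at least 100, 714 with CBX6 scores of at least 100, 740 when only replicate 1 had to lack a peak and 564 when only replicate 2 had to. The share at starts (70.2%) was 76.6% with 50% coverage, 77.8% with scores of at least 100 and 76.1% with 5000 bp windows. The CpG ratio (0.689) was 0.534 over whole peaks. Genes higher and lower past 1.5-fold (15 and 10) numbered 68 and 22 without a filter, 1 and 4 at 5 FPKM and 7 and 6 with 1 FPKM added, and ran from 9 to 18 and 7 to 12 with a library left out, the lone library of a group being assumed to vary like the others in limma. Over all genes, limma calls (5 higher, 6 lower) were 11 higher with 0.1 FPKM and 1 and 1 without a filter; leaving out a library gave 3 to 188 higher and 7 to 87 lower, and 0 to 4 and 0 to 1 among genes at sites without CBX6, the highest counts without shCbx6 replicate 1. Log2 differences ran from −1.42 to −0.70 for Cbx6 and −0.26 to 0.070 for Snx22. The sign of Snx22 turned without shCTL replicate 2 and without shCbx6 replicate 1 (0.05). The cause was not tested.

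The labels name a shared FPKM table for libraries with the same number, but no shared culture, batch or day. Their deviations from the group means correlated at r = 0.266 across 11577 genes. With the replicate block, limma called 183 genes higher and 205 lower, of which 2 and 4 were genes at sites without CBX6 (Cxcl16 and Gchfr higher, B3galnt1, Frmd4a, Ica1 and Khdc3 lower), and Cbx6, at −1.06, passed the threshold. Of 112 values of named genes under alternatives, 100 kept their sign and side of the threshold. Taking the most upstream start of each gene, autosomal sites alone, or the genes with no CBX6 peak within 2500 bp of a start, were alternatives chosen after seeing the data, and changed no count past 1.5-fold by over 1.5 times.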
